A study of Rattus norvegicus with 15 samples.

Results

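The genes described here are the cyclins, the cyclin-dependent kinases (CDKs), the inhibitors and activators of these kinases, and the E2F-Rb and MuvB transcription factors of the cell cycle. They were chosen by gene symbol, as every autosomal gene of these families that stood in at least 1 of the 3 deposited tables, which gave 46 of the 8621 genes. RNA-seq was performed on 15 samples of Sprague-Dawley rat adrenal medulla, from which the cortex had been cut away under macrodissection. The 5 WT samples came from rats of 7 to 9.5 months, the 5 hyperplastic medullas of MENX rats (HYP) from 4 to 5 months, and the 5 MENX pheochromocytomas (PCC) from 7 to 9.5 months, so that HYP differed from WT in age as well as genotype, and from PCC in age as well as stage. MENX is a line from a Sprague-Dawley colony in which a spontaneous frameshift in *Cdkn1b* leaves an unstable p27 protein, and rats homozygous for it develop pheochromocytoma; the labels give the genotype as MENX without its zygosity. The methods count 2 PCCs and 3 advanced PCCs among the tumors, which the sample labels do not tell apart, and the PCC samples were therefore kept as 1 group.

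A cell divides when cyclins bind and switch on their CDKs in turn. D-type cyclins with *Cdk4* and *Cdk6*, and E-type cyclins with *Cdk2*, phosphorylate the Rb family of pocket proteins. This frees E2F factors to transcribe the genes of S phase. Cyclin A then acts in S phase and G2, and cyclin B with *Cdk1* drives mitosis. The CIP/KIP inhibitors, with p27 encoded by *Cdkn1b* among them, bind cyclin-CDK complexes, above all those of *Cdk2*, while the INK4 inhibitors bind *Cdk4* and *Cdk6*. Chromaffin cells of the adult rat adrenal medulla divide rarely, and the level of p27 is known to be set largely by protein degradation through the ubiquitin ligase subunit *Skp2*.

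Late cell cycle genes carry known promoter elements: E2F sites, the CHR element that MuvB complexes bind, and CCAAT boxes bound by NF-Y. The 250 bases before the RefSeq transcription start are printed for *Cdkn1b* and *Cdk2*, on which the results center, and for the cyclin, the CDK and the E2F gene with the largest fold change in PCC vs. WT that had such a sequence (*E2f8*, which had none, was passed over for *E2f7*). They are given 5′ to 3′ along the gene, in assembly GRCr8, with matches to the E2F words (TTTCCCGC, TTTGGCGC, TTTCGCGC and TTTGCCGC), the CHR words (TTTGAA and TTCGAA) and CCAAT on either strand in capitals; ATTGG is CCAAT on the other strand. *Cdkn1b* lies at chr4:169491254-169491503 on the plus strand, *Cdk2* at chr7:1721879-1722128 on the minus strand, *Ccnb1* at chr2:33655226-33655475 on the minus strand, *Cdk1* at chr20:19265043-19265292 on the plus strand and *E2f7* at chr7:48036653-48036902 on the plus strand.
Cdkn1b: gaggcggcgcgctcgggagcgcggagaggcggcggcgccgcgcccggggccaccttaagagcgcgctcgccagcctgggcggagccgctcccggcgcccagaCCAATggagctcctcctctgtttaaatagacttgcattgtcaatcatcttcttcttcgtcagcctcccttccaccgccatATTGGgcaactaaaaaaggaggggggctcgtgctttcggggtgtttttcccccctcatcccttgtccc
Cdk2: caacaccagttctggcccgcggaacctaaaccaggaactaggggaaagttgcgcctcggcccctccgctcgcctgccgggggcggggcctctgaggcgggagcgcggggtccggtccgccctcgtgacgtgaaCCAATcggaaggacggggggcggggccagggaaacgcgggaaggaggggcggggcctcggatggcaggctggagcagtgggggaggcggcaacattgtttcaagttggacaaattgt
Ccnb1: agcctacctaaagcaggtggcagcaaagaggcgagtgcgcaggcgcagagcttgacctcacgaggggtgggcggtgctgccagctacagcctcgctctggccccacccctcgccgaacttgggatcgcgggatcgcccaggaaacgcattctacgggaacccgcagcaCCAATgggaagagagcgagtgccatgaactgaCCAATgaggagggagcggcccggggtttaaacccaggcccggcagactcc
Cdk1: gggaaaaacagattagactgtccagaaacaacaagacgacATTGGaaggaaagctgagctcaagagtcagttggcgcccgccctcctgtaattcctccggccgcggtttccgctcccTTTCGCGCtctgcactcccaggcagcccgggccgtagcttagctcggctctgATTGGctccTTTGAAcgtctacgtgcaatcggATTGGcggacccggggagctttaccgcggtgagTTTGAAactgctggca
E2f7: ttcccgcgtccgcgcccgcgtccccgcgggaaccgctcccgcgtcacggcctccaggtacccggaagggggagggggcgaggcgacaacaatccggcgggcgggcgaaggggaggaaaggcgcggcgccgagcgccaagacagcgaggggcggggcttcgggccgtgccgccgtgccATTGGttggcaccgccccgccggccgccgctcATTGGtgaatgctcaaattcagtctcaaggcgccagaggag

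*Cdk1* held all 3 kinds of word, with the E2F word at position -133 from the start, CHR words at -72 and -16, and CCAAT at -210, -81 and -49. *Cdkn1b* held CCAAT at -148 and -68, *Ccnb1* at -82 and -50, *E2f7* at -73 and -41, and *Cdk2* at -117, and none of these 4 held an E2F or CHR word in the stretch searched. Including the 50 bases after the start, a RefSeq sequence was found for 31 of the 46 genes. An E2F word stood in 4 of these 31 (*Cdk1*, *Cdc25a*, *Lin52* and *Rbl1*), against 2.14% of all 33469 RefSeq promoters, a CHR word in 9 of 31 against 19.7%, and CCAAT in 14 of 31 against 37.5%. A gene was counted where any of its RefSeq sequences held the word, while the percentages count each sequence by itself. The 2 measures are therefore unlike, and the counts of genes can only be raised by this. A match is a description of the letters and not of binding, and no match of 1 kind overlapped a match of another kind in the 5 sequences shown. Of the 31 genes with a sequence, 19 were called higher and 5 lower in PCC vs. WT below, against 46.7% and 38.5% of all genes tested. The 4 genes with an E2F word were among the 19. The call of *Lin52*, among these 4, was lost in 8 of the 10 fits that left out 1 sample. Whether E2F words go with the rise was not tested.

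The reads counted on genes came to between 16315018 and 23831269 per sample, and levels are CPM, the count as a share of the library in units of 1e6 reads, scaled by TMM, a scaling that centers the samples on the bulk of the listed genes. Each table compares 2 groups and lists only genes that the authors had called, so a count of called genes is not independent evidence that the family changed, and family members outside the tables, *Rb1* and *Ccne1* among them, were not analysed here. Each pair of groups was tested by the quasi-likelihood method of edgeR, and a gene was called at a Benjamini-Hochberg adjusted *p* under 0.05 over all genes that the authors had tested. All HYP and PCC values were compared with the same 5 WT samples. Values per sample are given in the order of replicates 1 to 5, and the methods give 5 animals for each group of 5 samples.

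In PCC vs. WT, 26 of the 42 listed genes were called higher, where 46.7% of all listed genes were higher, and 7 were called lower, where 38.5% of all were. The median log2 fold change was 1.13 for the 42 genes and 0.44 for all 7001 genes tested. In HYP vs. WT, 16 of 29 genes were called higher (39.5% of all) and 6 lower (32.5% of all), with a median of 0.75 against -0.37 for all 4108 genes. In PCC vs. HYP, 6 of 20 genes were called higher (21.8% of all) and 2 lower (22.6% of all), with a median of 0.71 against 0.43 for all 3148 genes. The groups did not overlap for 31 of 42, 19 of 29 and 6 of 20 genes, against 66.2%, 57.1% and 51.6% of all genes tested. Of the 33 genes with values in all samples, 23 had group means in the order WT, HYP, PCC from low to high and 7 in the reverse order, against 44.2% and 40.6% of 5492 genes.

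The split depended on the scaling. Scaled to the summed counts of the listed genes (the listed total), which moved the median gene by 0.50, 0.46 and 0.15 on the log2 scale in the 3 comparisons, 28 genes were higher and 3 lower in PCC vs. WT, 19 and 0 in HYP vs. WT, and 7 and 0 in PCC vs. HYP, where the counts of 0 stand beside 3 and 4 genes at an unadjusted *p* under 0.05. With the size factors of the authors the counts were 25 and 11, 15 and 7, and 7 and 0. In PCC vs. HYP the counts also rested on single samples: without HYP replicate 3, and likewise without HYP replicate 4, edgeR called 0 and 0 (at an unadjusted *p* under 0.05, 11 and 4 without HYP replicate 3, and 10 and 4 without HYP replicate 4; DESeq2 on all samples called 6 and 4), and over all samples left out in turn the genes called higher numbered 0 to 8 and those called lower 0 to 3.

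**Figure D1:**
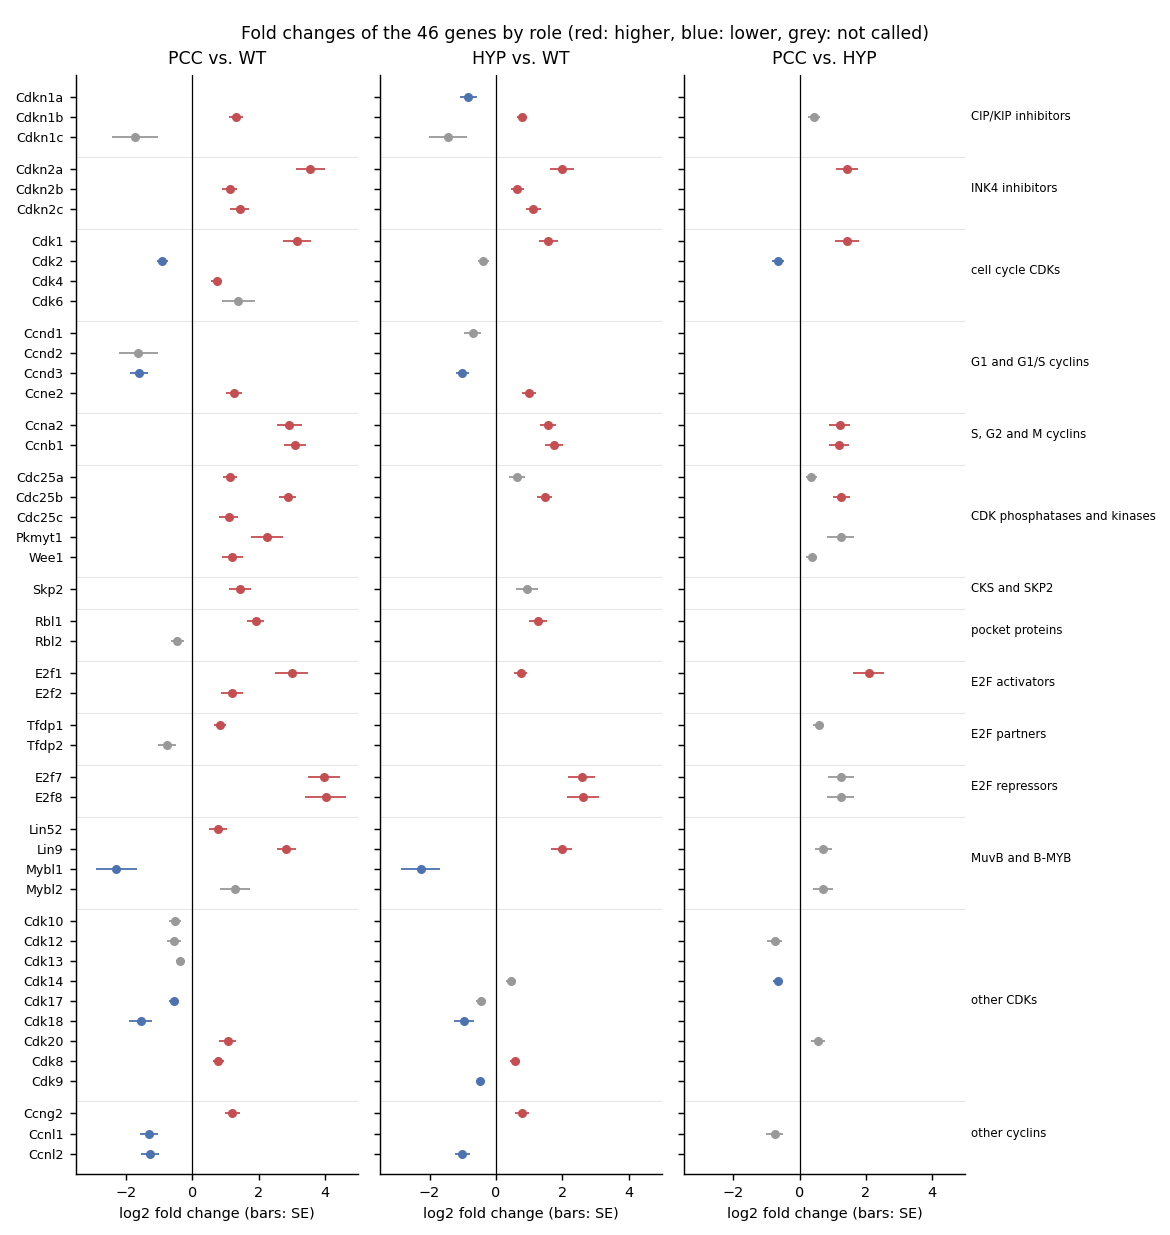
Log2 fold changes of the 46 genes, grouped by role, in the comparisons PCC vs. WT (left), HYP vs. WT (middle) and PCC vs. HYP (right); points are estimates and bars 1 SE, red and blue mark genes called higher and lower, and a gene without a point was not listed for that comparison. In PCC vs. WT the points of the S, G2 and M cyclins, the INK4 inhibitors and the E2F repressors all lie to the right of 0, while *Mybl1*, *Ccnd3*, *Cdk18*, *Ccnl1*, *Ccnl2*, *Cdk2* and *Cdk17* are called lower.

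Summed markers of the chromaffin, cortex, endothelial and fibroblast and pericyte lists did not overlap between WT and PCC. Those of sustentacular and Schwann cells did. The summed level of the 9 chromaffin markers with values in all samples, of 12 listed, was 1947 to 9960.2 CPM in WT, 10949.9 to 15495 in HYP and 18975 to 37772 in PCC. That of 10 of 18 adrenal cortex markers was 28948 to 57321, 13055 to 33264 and 953 to 14867 CPM. Chromaffin sums did not overlap between any 2 groups and were highest in PCC, while cortical sums overlapped between WT and HYP and between HYP and PCC, but not between WT and PCC. Only listed markers enter the sums, so they had already been called different between groups. All 9 chromaffin markers were called higher in PCC vs. WT, and *Chga*, *Chgb* and *Pnmt* did not have values in every sample. The separation of the sums is therefore not independent evidence. The 5 fibroblast and pericyte markers, of 10, summed to 61.3 to 123, 202 to 272 and 614 to 2366 CPM, most of it in PCC from *Rgs5* alone, a pericyte gene whose log2 fold change was 5.51 in PCC vs. WT against 1.29 for *Col3a1*, 1.35 for *Col1a1* and 1.65 for *Acta2*. The remaining marker summed, *Pdgfra*, was not listed for PCC vs. WT. In PCC vs. HYP it was -1.41 on the log2 scale and not called (adjusted *p* = 0.0768). The 7 endothelial markers, of 12, summed to 545 to 712, 361 to 470.0 and 228 to 433 CPM. Of 8 endothelial markers tested in PCC vs. WT, 5 were called lower, against 38.5% of all genes, and 2 were not called. The other, *Vwf*, was higher, with a log2 fold change of 1.48. The 7 sustentacular and Schwann markers, of 9, summed to 55.8 to 119, 79.4 to 119.7 and 60.1 to 108 CPM. Of 15 macrophage and leukocyte markers, only *Cd163* had values in all samples, and no marker with values was at 0 in every sample. WT replicate 5 stood apart, with the lowest chromaffin sum of all samples; without it, 26 genes of the family were called higher and 8 lower in PCC vs. WT, and 17 and 6 in HYP vs. WT. The part of this cell makeup in the results below was not tested, and in bulk tissue fewer cells of a type cannot be told apart from less RNA per cell.

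**Figure D2:**
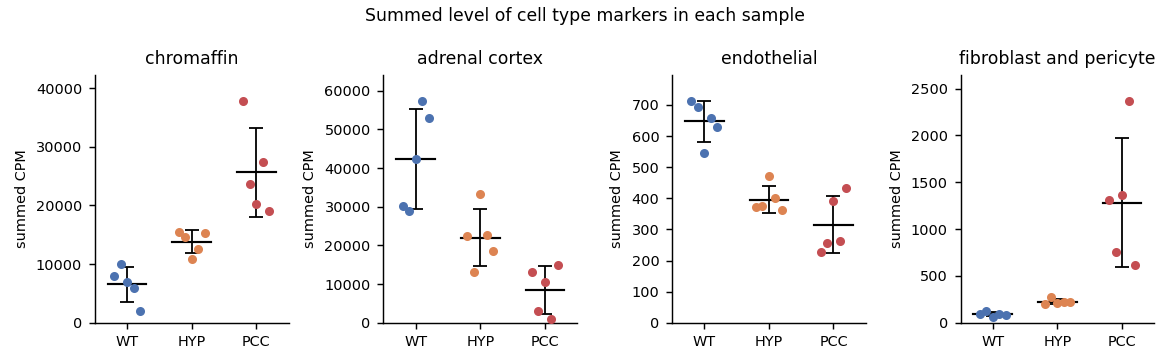
Summed CPM of the chromaffin, adrenal cortex, endothelial and fibroblast and pericyte markers in each of the 5 WT, HYP and PCC samples; lines and bars are means and SD. Chromaffin sums run from 1947 to 9960.2 CPM in WT and from 18975 to 37772 CPM in PCC, and cortex sums from 28948 to 57321 CPM in WT and from 953 to 14867 CPM in PCC.

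*Cdkn1b*, the gene mutated in MENX rats (chromosome 4, 168689163 to 168693964, plus strand, in the coordinates of the tables, which were mapped to Rn06), had a higher RNA level in the MENX tissues than in WT. Its values were 76.2, 64.0, 52.7, 53.7 and 42.7 CPM in WT, 97.7, 125, 99.2, 80.1 and 97.5 CPM in HYP and 175, 158, 129, 171 and 108 CPM in PCC. All HYP and PCC samples lay above all WT samples, while HYP and PCC overlapped. *Cdkn1b* rose 2.497-fold in PCC vs. WT (log2 fold change 1.32 ± 0.20 (SE), adjusted *p* = 0.000707) and 1.72-fold in HYP vs. WT (log2 fold change 0.78 ± 0.16 (SE), adjusted *p* = 0.00757). The difference between PCC and HYP was 0.42 ± 0.18 (SE) on the log2 scale and was not called (adjusted *p* = 0.217). Over the fits that leave out 1 sample, its log2 fold change was 1.21 to 1.43 in PCC vs. WT and 0.70 to 0.88 in HYP vs. WT. Per gene length, *Cdkn1b* stood at 30.0 ± 8.26 FPKM (SD, n = 5) in WT, 58.5 ± 10.8 in HYP and 90.7 ± 15.7 in PCC, above *Cdk2* in every sample. A frameshift leaves the gene transcribed, so the reads of MENX samples measure RNA of the gene and say nothing of the amount of p27 protein. The counts do not tell a mutant from a WT copy of the gene.

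*Cdk2*, the kinase that p27 binds and holds inactive (chromosome 7, 3124954 to 3132457, minus strand, in the same coordinates), was lower in PCC than in WT. The samples had 29.5, 22.2, 27.3, 27.2 and 23.4 CPM in WT, 20.9, 18.5, 25.8, 17.4 and 17.2 CPM in HYP and 15.2, 12.1, 13.1, 16.6 and 13.5 CPM in PCC. Every PCC sample lay below every WT and every HYP sample, and HYP and WT overlapped. *Cdk2* was 1.88-fold lower in PCC vs. WT (log2 fold change -0.91 ± 0.16 (SE), adjusted *p* = 0.00156). In PCC vs. HYP it was 1.56-fold lower at the edge of the threshold (log2 fold change -0.65 ± 0.18 (SE), adjusted *p* = 0.0493), and the call was lost in 9 of the 10 fits that left out 1 sample, all except the fit without PCC replicate 1, with adjusted *p*-values over the 10 fits of 0.0466 to 0.118. HYP vs. WT gave -0.38 ± 0.16 (SE), which was not called (adjusted *p* = 0.150). The size of the difference followed the scaling: scaled to the listed total, PCC vs. WT was -0.41 and not called (adjusted *p* = 0.142), and HYP vs. WT turned to 0.07. In FPKM, which the authors scaled to library totals, *Cdk2* ranged 8.23 to 12.6 in WT, 8.42 to 11.5 in HYP and 6.26 to 8.44 in PCC, so that the WT and PCC ranges met.

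A ratio of 2 genes within a sample does not depend on the scaling, although its level follows the gene lengths used; the FPKM values of *Cdkn1b* and *Cdk2* fitted the lengths listed for them, and those of *Cdk1*, *Cdkn1a*, *Cdkn1c*, *Ccnd1*, *Tfdp1* and *Tfdp2*, among others, another length. The ratio of *Cdkn1b* to *Cdk2* in FPKM was 3.22, 3.61, 2.41, 2.47 and 2.28 in WT, 5.83, 8.44, 4.81, 5.77 and 7.10 in HYP and 14.4, 16.3, 12.3, 12.8 and 10.02 in PCC. The 3 groups did not overlap, with WT lowest and PCC highest. On the log2 scale PCC exceeded WT by 2.24, HYP exceeded WT by 1.19, and PCC exceeded HYP by 1.05, each with *p* = 0.00794 in a two-sided exact permutation test, the smallest that 5 samples against 5 allow. Adjusted over the 12 tests made on 6 ratios, each *p* was 0.0119. The genes in the ratios came from lists of genes already called different between these same samples. *Cdkn1b* and *Cdk2* were listed for all 3 comparisons with opposite signs in each, so the separation of their ratio is not independent evidence. The same limit holds for the other ratios below. The summed chromaffin markers stood in the same order over the groups, and their part in the ratio was not tested.

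**Figure D3:**
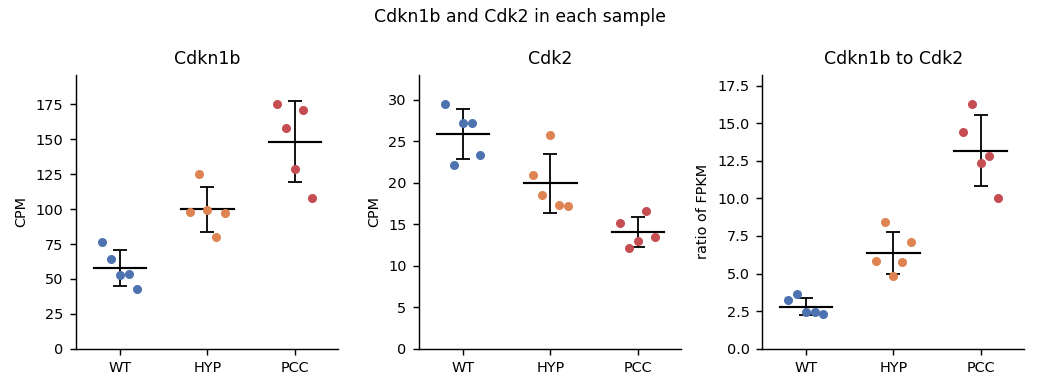
*Cdkn1b* and *Cdk2* in CPM and the ratio of their FPKM values in each of the 5 WT, HYP and PCC samples; lines and bars are means and SD. *Cdkn1b* runs from 42.7 to 76.2 CPM in WT and from 108 to 175 CPM in PCC, *Cdk2* from 22.2 to 29.5 and 12.1 to 16.6 CPM, and the ratio separates all 3 groups.

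*Cdk1*, the mitotic kinase, changed the other way from *Cdk2*. It had 1.32, 1.09, 1.43, 0.768 and 1.91 CPM in WT, 5.63, 2.72, 3.33, 4.06 and 4.01 CPM in HYP and 5.46, 16.8, 9.09, 20.4 and 7.89 CPM in PCC, with no overlap of WT with either group, and PCC replicate 1 within the HYP range. *Cdk1* rose 8.97-fold in PCC vs. WT (log2 fold change 3.17 ± 0.41 (SE), adjusted *p* = 0.000365), 3.00-fold in HYP vs. WT (adjusted *p* = 0.00474) and 2.68-fold in PCC vs. HYP (adjusted *p* = 0.0333, lost in 7 of the 10 fits without 1 sample, with values of 0.0207 to 0.0972). The FPKM ratio of *Cdk2* to *Cdk1* was therefore 12.8, 11.7, 10.9, 20.3 and 7.02 in WT, 2.13, 3.90, 4.43, 2.45 and 2.45 in HYP and 1.59, 0.413, 0.823, 0.468 and 0.977 in PCC. The ratio fell from group to group without overlap, and in 4 of 5 PCC samples *Cdk1* had the higher FPKM. On the log2 scale the ratio differed by -3.97 between PCC and WT, -2.01 between HYP and WT, and -1.96 between PCC and HYP (exact permutation test, adjusted *p* = 0.0119 each).

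Of the kinases that act with D-type cyclins, *Cdk4* was higher in PCC than in WT and *Cdk6* was not called; neither was listed for a comparison with HYP. *Cdk4* had 57.1, 55.8, 57.9, 66.5 and 62.6 CPM in WT and 84.4, 112, 84.0, 129.8 and 87.4 CPM in PCC, which do not overlap (log2 fold change 0.73 ± 0.16 (SE), adjusted *p* = 0.00453). The FPKM ratio of *Cdk2* to *Cdk4* was 0.217, 0.169, 0.196, 0.170 and 0.149 in WT and 0.0719, 0.0440, 0.0635, 0.0521 and 0.0634 in PCC, a log2 difference of -1.62 (exact permutation test, adjusted *p* = 0.0119). *Cdk6* had 4.35, 5.04, 3.39, 2.69 and 2.75 CPM in WT and 3.38, 5.59, 9.16, 24.1 and 5.68 CPM in PCC. PCC replicate 4 stood above the other tumors, which overlapped with WT, and the log2 fold change of 1.39 ± 0.49 (SE) missed the threshold (adjusted *p* = 0.0502). Without PCC replicate 1, 2 or 5 it was called, with adjusted *p*-values of 0.0221 to 0.154 over the samples left out, as it was in 6 of 8 other alternatives.

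Both listed cyclins of S phase and mitosis were called higher in HYP and in PCC than in WT. Both were also called higher in PCC than in HYP, but these calls were mostly lost when 1 sample was left out. The share of all genes tested that was called higher was 46.7% for PCC against WT. It was 39.5% for HYP against WT and 21.8% for PCC against HYP. *Ccnb1*, cyclin B1, which activates *Cdk1* at mitosis, had 0.864, 0.880, 0.796, 1.024 and 1.43 CPM in WT, 3.34, 4.99, 2.26, 3.04 and 3.43 CPM in HYP and 4.81, 11.5, 7.84, 12.8 and 6.94 CPM in PCC. *Ccna2*, cyclin A2 of S phase and G2, had 1.016, 1.60, 1.17, 1.86 and 1.70, 5.45, 5.10, 3.71, 4.23 and 3.47 and 6.61, 19.0, 9.32, 15.7 and 6.34 CPM in the 3 groups. WT lay below both other groups for each gene, and HYP and PCC were apart for *Ccna2* and overlapped for *Ccnb1*. In PCC vs. WT, *Ccnb1* rose 8.63-fold (log2 fold change 3.11 ± 0.33 (SE), adjusted *p* = 0.000134) and *Ccna2* 7.60-fold (log2 fold change 2.93 ± 0.38 (SE), adjusted *p* = 0.000341). HYP vs. WT gave 3.38-fold and 2.96-fold (adjusted *p* = 0.00197 and 0.00203). In PCC vs. HYP the rises were 2.30-fold and 2.32-fold (adjusted *p* = 0.0339 and 0.0416), and these calls were lost in 7 and 8 of the 10 fits without 1 sample (adjusted *p* of 0.0212 to 0.0952 and 0.0203 to 0.114).

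**Figure D4:**
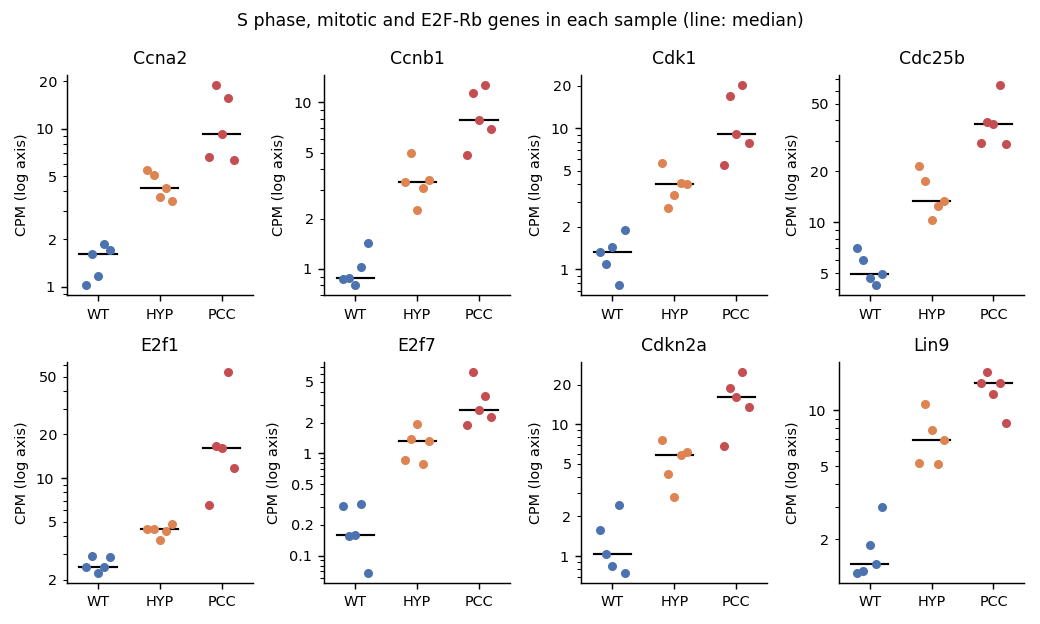
CPM on log axes of *Ccna2*, *Ccnb1*, *Cdk1*, *Cdc25b*, *E2f1*, *E2f7*, *Cdkn2a* and *Lin9* in each of the 5 WT, HYP and PCC samples, with lines at the medians. For all 8 genes the HYP median lies between those of WT and PCC, and every WT sample lies below every HYP and PCC sample.

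The G1 cyclins did not move together. *Ccnd3*, cyclin D3, had the highest level of them per length, at 145 ± 18.1 FPKM (SD, n = 5) in WT. It had 263, 264, 349.7, 316 and 358 CPM in WT, 171, 106, 126, 196 and 171 CPM in HYP and 73.0, 64.5, 109.6, 99.1 and 173 CPM in PCC. All MENX samples lay below all WT samples, and *Ccnd3* was 3.04-fold lower in PCC vs. WT (log2 fold change -1.60 ± 0.26 (SE), adjusted *p* = 0.00109) and 2.03-fold lower in HYP vs. WT (adjusted *p* = 0.00544), a call that was lost under scaling to the listed total. *Ccnd2*, cyclin D2, spread widely within WT, with 27.3, 28.2, 74.5, 59.1 and 182 CPM, and had 27.1, 12.2, 40.8, 7.61 and 31.6 CPM in PCC. The highest WT value was that of replicate 5, the groups overlapped, and the log2 fold change of -1.63 ± 0.59 (SE) was not called (adjusted *p* = 0.0526), although it was without WT replicate 1, WT replicate 2 or PCC replicate 3 (adjusted *p* of 0.0335 to 0.175 over the samples left out) and in 5 of 8 other alternatives. The FPKM ratio of *Ccnd2* to *Ccnd3* was 0.139, 0.141, 0.288, 0.253 and 0.713 in WT and 0.521, 0.261, 0.512, 0.106 and 0.249 in PCC, with a log2 difference of 0.17 (exact permutation test, *p* = 0.77) that turned negative in 4 of the 10 sets without 1 sample. *Ccnd1*, cyclin D1, listed only for HYP vs. WT, ranged 14.4 to 37.1 CPM in WT and 13.0 to 16.4 in HYP and was not called (adjusted *p* = 0.0776), except without WT replicate 3 or WT replicate 4 (0.0410 to 0.203 over the samples left out) or when adjusted over the listed genes alone.

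*Ccne2*, cyclin E2, a partner of *Cdk2*, was higher in the MENX samples. It ranged 5.30 to 8.89 CPM in WT, 10.5 to 20.005 CPM in HYP and 13.2 to 26.3 CPM in PCC. WT lay below the other groups, and the rise was 2.39-fold in PCC vs. WT (log2 fold change 1.26 ± 0.24 (SE), adjusted *p* = 0.00244) and 2.00-fold in HYP vs. WT (adjusted *p* = 0.0101). Thus *Ccne2* and *Cdk2*, whose proteins form a complex, changed in opposite directions in PCC vs. WT.

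Of the other CIP/KIP inhibitors, *Cdkn1a* was lower in HYP than in WT and *Cdkn1c* was not called. *Cdkn1a*, which encodes p21, was listed for HYP vs. WT alone, with 35.9, 46.02, 30.6, 38.3 and 22.8 CPM in WT and 32.4, 18.0, 18.4, 14.0 and 14.4 CPM in HYP. HYP replicate 1 lay within the WT range and the other HYP samples below it, and *Cdkn1a* was 1.79-fold lower (log2 fold change -0.84 ± 0.26 (SE), adjusted *p* = 0.0425). This call was lost in 8 of the 10 fits without 1 sample, all except those without WT replicate 5 or HYP replicate 1 (adjusted *p* of 0.00486 to 0.103), and in 3 of 8 other alternatives. The FPKM ratio of *Cdkn1b* to *Cdkn1a* was 1.53, 1.01, 1.27, 1.023 and 1.47 in WT and 2.198, 4.95, 4.02, 4.26 and 4.98 in HYP, with no overlap and a log2 difference of 1.66 (exact permutation test, adjusted *p* = 0.0119).

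*Cdkn1c*, which encodes p57, varied among the samples of each group, with 52.5, 45.2, 79.4, 143 and 367 CPM in WT, 76.6, 29.4, 81.1, 37.8 and 32.7 CPM in HYP and 41.3, 21.3, 25.3, 10.9 and 107 CPM in PCC. WT replicate 5 and PCC replicate 5 had the highest values of their groups. The summed cortex markers were highest in replicate 4 within WT (57321 CPM, against 53062.5 in replicate 5) and in replicate 5 within PCC (14867 CPM). Whether *Cdkn1c* follows the cortical transcripts was not tested. Neither PCC vs. WT (-1.74 ± 0.69, adjusted *p* = 0.0803) nor HYP vs. WT (-1.46 ± 0.57, adjusted *p* = 0.117) was called; without PCC replicate 5 the former was (adjusted *p* of 0.0144 to 0.313 over the samples left out), as it was in 3 of 9 other alternatives. The FPKM ratio of *Cdkn1b* to *Cdkn1c* was 1.61, 1.58, 0.739, 0.418 and 0.130 in WT, 1.42, 4.74, 1.36, 2.36 and 3.32 in HYP and 4.72, 8.28, 5.66, 17.4 and 1.13 in PCC. The groups overlapped, and of the log2 differences only that of PCC vs. WT, 3.08, had an adjusted *p* under the threshold (exact permutation test, adjusted *p* = 0.0317, against 0.0571 between HYP and WT and 0.173 between PCC and HYP). The first of these was lost in 7 of the 10 sets without 1 sample (adjusted *p* of up to 0.0635), and the difference between PCC and HYP passed without PCC replicate 5 (1.74, adjusted *p* = 0.0381).

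**Figure D5:**
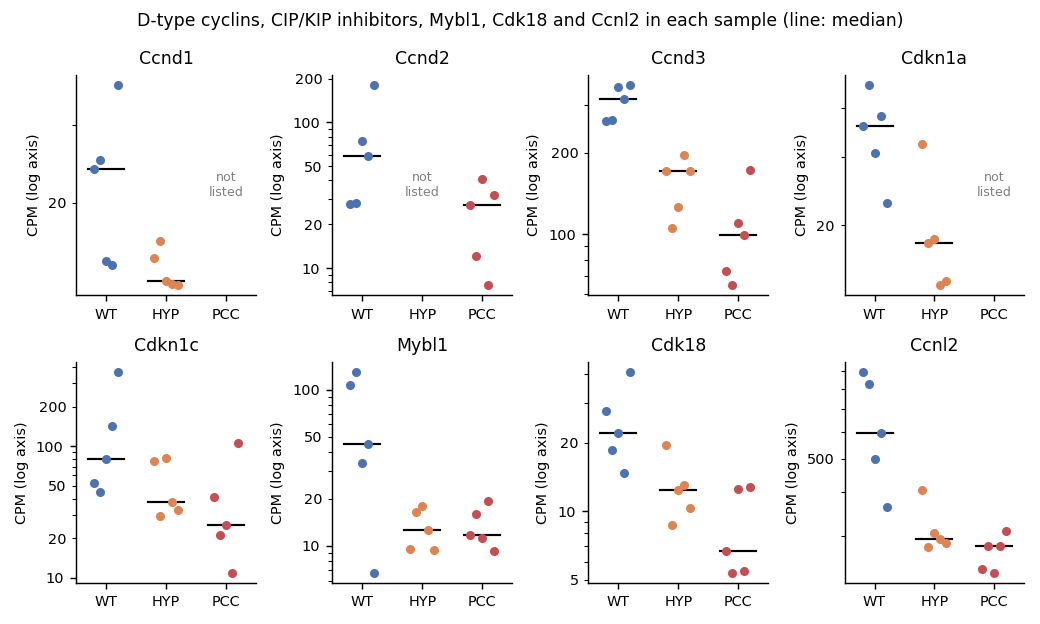
CPM on log axes of *Ccnd1*, *Ccnd2*, *Ccnd3*, *Cdkn1a*, *Cdkn1c*, *Mybl1*, *Cdk18* and *Ccnl2* in each of the 5 WT, HYP and PCC samples, with lines at the medians; a group marked as not listed has no values in the tables. *Ccnd3* separates WT from the MENX samples, while *Ccnd2*, *Cdkn1c* and *Mybl1* spread widely within WT.

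All 3 listed INK4 inhibitors, which bind *Cdk4* and *Cdk6*, rose in PCC vs. WT and in HYP vs. WT. Of all genes tested, 46.7% and 39.5% were called higher in these 2 comparisons. *Cdkn2a*, which encodes p16 and, from another reading frame, Arf, had 1.58, 1.04, 0.849, 2.43 and 0.749 CPM in WT, 7.55, 4.21, 2.83, 5.86 and 6.12 CPM in HYP and 6.89, 19.0, 16.1, 24.95 and 13.5 CPM in PCC. All WT samples lay below all others, and PCC replicate 1 lay within the HYP range. *Cdkn2a* rose 11.8-fold in PCC vs. WT (log2 fold change 3.56 ± 0.43 (SE), adjusted *p* = 0.000257), 3.99-fold in HYP vs. WT (adjusted *p* = 0.00412) and 2.70-fold in PCC vs. HYP (adjusted *p* = 0.0289, lost in 6 of the 10 fits without 1 sample, with values of 0.0152 to 0.0766); the reads do not tell its reading frames apart. *Cdkn2c*, which encodes p18, had 4.57, 4.14, 5.09, 3.14 and 3.68 CPM in WT, 12.2, 10.6, 7.98, 7.95 and 6.90 CPM in HYP and 11.4, 6.38, 9.36, 15.0 and 14.6 CPM in PCC. It rose 2.69-fold and 2.19-fold against WT (adjusted *p* = 0.00257 and 0.00535), with HYP and PCC in the same range. *Cdkn2b*, which encodes p15, ranged 9.89 to 15.9, 15.9 to 26.6 and 18.4 to 36.6 CPM and rose 2.18-fold in PCC vs. WT (adjusted *p* = 0.00272). Its rise of 1.56-fold in HYP vs. WT (adjusted *p* = 0.0440) was lost in 7 of the 10 fits without 1 sample (adjusted *p* of 0.0442 to 0.105) and in 3 of 9 other alternatives.

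The phosphatases that remove inhibitory phosphates from CDKs, and the kinases that add them, were higher in PCC vs. WT. There 5 of 5 were called higher, against 46.7% of all genes tested. In HYP vs. WT it was 1 of 2, against 39.5%, and in PCC vs. HYP 1 of 4, against 21.8%. *Cdc25b*, the phosphatase that activates *Cdk1* early in mitosis, had 7.01, 6.01, 4.67, 4.22 and 4.90 CPM in WT, 21.4, 17.5, 10.2, 12.5 and 13.4 CPM in HYP and 29.5, 39.2, 38.2, 65.1 and 29.1 CPM in PCC. The 3 groups did not overlap, and *Cdc25b* rose 7.32-fold in PCC vs. WT (log2 fold change 2.87 ± 0.27 (SE), adjusted *p* = 9.87e-05), 2.77-fold in HYP vs. WT (adjusted *p* = 0.00202) and 2.401-fold in PCC vs. HYP (adjusted *p* = 0.0165, lost without HYP replicate 3 or HYP replicate 4, with values of 0.0108 to 0.0553). *Pkmyt1*, which restrains *Cdk1*, had 2.54, 2.38, 1.17, 0.768 and 1.43 CPM in WT, 4.21, 2.22, 2.51, 3.83 and 2.496 CPM in HYP and 2.54, 12.8, 5.86, 13.4 and 6.26 CPM in PCC. PCC replicate 1 was level with the highest WT samples, and *Pkmyt1* rose 4.77-fold in PCC vs. WT (adjusted *p* = 0.00514) and was not called in PCC vs. HYP (adjusted *p* = 0.0824). The phosphatases *Cdc25a* and *Cdc25c* and the inhibitory kinase *Wee1* rose 2.198-fold, 2.14-fold and 2.31-fold in PCC vs. WT (adjusted *p* = 0.00279, 0.0117 and 0.0114). *Cdc25a* was not called in HYP vs. WT (adjusted *p* = 0.111), where WT replicate 5, at 17.1 CPM, lay above the other WT samples; without it the gene was called (adjusted *p* of 0.00216 to 0.362 over the samples left out), as in 4 of 9 other alternatives.

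*Skp2*, the ubiquitin ligase subunit that marks p27 for degradation, had 1.68, 1.60, 1.80, 2.05 and 4.77 CPM in WT, 3.84, 5.38, 3.96, 5.13 and 4.65 CPM in HYP and 8.002, 7.24, 4.89, 7.30 and 5.23 CPM in PCC. WT replicate 5 was again the highest of its group and lay within the HYP range. *Skp2* rose 2.72-fold in PCC vs. WT (log2 fold change 1.44 ± 0.34 (SE), adjusted *p* = 0.00689) and was not called in HYP vs. WT (adjusted *p* = 0.0789), where leaving out WT replicate 5 brought a call (adjusted *p* of 0.00111 to 0.233 over the samples left out), as did 4 of 9 other alternatives.

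In the E2F-Rb network the largest fold changes were those of the repressors. *E2f7* and *E2f8*, atypical E2Fs that shut off E2F targets late in S phase, were close to absent from WT, with 1 to 6 and 0 to 5 reads per sample. *E2f7* had 0.305, 0.155, 0.159, 0.320 and 0.0681 CPM in WT, 0.866, 1.39, 1.95, 0.789 and 1.32 CPM in HYP and 1.90, 6.27, 2.63, 3.68 and 2.27 CPM in PCC, and *E2f8* had 0.254, 0.207, 0.106, 0 and 0.0681, 1.30, 1.05, 0.566, 0.677 and 0.734 and 1.018, 3.42, 1.94, 3.77 and 1.41 CPM. For both genes WT lay below HYP and PCC, which overlapped. In PCC vs. WT, *E2f7* rose 15.6-fold (log2 fold change 3.97 ± 0.49 (SE), adjusted *p* = 0.000274) and *E2f8* 16.2-fold (log2 fold change 4.02 ± 0.62 (SE), adjusted *p* = 0.000785), and in HYP vs. WT 6.02-fold and 6.15-fold (adjusted *p* = 0.00186 and 0.00471); with so few WT reads the size of these folds is loose. PCC vs. HYP was called for neither (adjusted *p* = 0.0683 and 0.0810).

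*E2f1*, the activator that induces S phase genes, had 2.44, 2.90, 2.23, 2.43 and 2.86 CPM in WT, 4.46, 4.43, 3.77, 4.29 and 4.84 CPM in HYP and 6.52, 16.5, 16.1, 53.8 and 11.7 CPM in PCC. WT and HYP were narrow and did not overlap, and the tumors spread widely, with PCC replicate 4 far above the rest. *E2f1* rose 7.96-fold in PCC vs. WT (log2 fold change 2.99 ± 0.51 (SE), adjusted *p* = 0.00128), 1.68-fold in HYP vs. WT (adjusted *p* = 0.0193) and 4.23-fold in PCC vs. HYP (adjusted *p* = 0.0212). The HYP vs. WT call was lost without WT replicate 1, WT replicate 3 or HYP replicate 5 (adjusted *p* of 0.0135 to 0.0626 over the samples left out) and that of PCC vs. HYP without HYP replicate 3 or HYP replicate 4 (0.0128 to 0.0681); 2 of 9 other alternatives also lost the former. Over the fits that leave out 1 sample, PCC replicate 4 among them, the PCC vs. WT log2 fold change was 2.29 to 3.19. *E2f2*, another activator, had 5.63, 3.40, 2.97, 2.30 and 5.69 CPM in WT and 7.75, 7.88, 6.08, 12.2 and 12.1 CPM in PCC and rose 2.30-fold (log2 fold change 1.202 ± 0.32 (SE), adjusted *p* = 0.0145).

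The DNA-binding partners of the E2Fs differed from each other. *Tfdp1*, the main partner, had 44.2, 53.3, 40.5, 53.9 and 45.2 CPM in WT, 50.2, 51.9, 49.4, 50.4 and 61.0 CPM in HYP and 89.1, 98.2, 68.9, 109.9 and 67.7 CPM in PCC. PCC lay above both other groups, with a rise of 1.79-fold in PCC vs. WT (log2 fold change 0.84 ± 0.17 (SE), adjusted *p* = 0.00359); PCC vs. HYP missed the threshold (adjusted *p* = 0.0514) and passed it without PCC replicate 5 (adjusted *p* of 0.0319 to 0.138 over the samples left out) and in 5 of 9 other alternatives. *Tfdp2* had 11.3, 10.04, 14.2, 8.63 and 18.7 CPM in WT and 7.04, 5.39, 10.2, 5.91 and 8.73 CPM in PCC, with overlap and a log2 fold change of -0.75 ± 0.27 (SE) that was not called (adjusted *p* = 0.0536); it was without WT replicate 4 or PCC replicate 3 (adjusted *p* of 0.0394 to 0.132 over the samples left out) and in 4 of 8 other alternatives.

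The pocket proteins likewise parted. *Rbl1*, which encodes p107 and is itself an E2F target, had 2.54, 2.28, 2.65, 1.92 and 3.88 CPM in WT, 4.27, 9.03, 7.16, 5.24 and 6.41 CPM in HYP and 10.2, 11.4, 10.01, 12.9 and 6.34 CPM in PCC. WT lay below both other groups, and *Rbl1* rose 3.76-fold in PCC vs. WT (log2 fold change 1.91 ± 0.27 (SE), adjusted *p* = 0.000478) and 2.39-fold in HYP vs. WT (adjusted *p* = 0.00916). *Rbl2*, which encodes p130, the pocket protein of resting cells, had 75.1, 70.9, 86.0, 70.8 and 101 CPM in WT and 74.6, 64.1, 57.0, 39.0 and 61.0 CPM in PCC. The groups overlapped, and its log2 fold change of -0.45 ± 0.19 (SE) was not called (adjusted *p* = 0.0914); it was without PCC replicate 1 (adjusted *p* of 0.0430 to 0.204 over the samples left out) and in 2 of 8 other alternatives. Per length, *Rbl2* stood at 14.9 ± 1.87 and 13.3 ± 2.41 FPKM (SD, n = 5) in WT and PCC, and *Rbl1* at 0.785 ± 0.160 and 3.67 ± 0.972 FPKM.

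MuvB is the complex that represses late cell cycle genes with p130 in resting cells and activates them with B-MYB in dividing cells. Its core subunit *Lin9* had 1.32, 1.35, 1.86, 1.47 and 3.00 CPM in WT, 5.20, 10.8, 7.86, 5.13 and 6.95 CPM in HYP and 14.2, 16.2, 12.2, 14.1 and 8.53 CPM in PCC. Every WT sample lay below every other sample, and *Lin9* rose 7.14-fold in PCC vs. WT (log2 fold change 2.84 ± 0.29 (SE), adjusted *p* = 0.000121) and 3.94-fold in HYP vs. WT (adjusted *p* = 0.00205). *Lin52*, another core subunit, rose 1.71-fold in PCC vs. WT at the threshold (adjusted *p* = 0.0499), a call lost in 8 of the 10 fits without 1 sample (adjusted *p* of 0.0294 to 0.126) and in 2 of 8 other alternatives. *Mybl2*, which encodes B-MYB, ranged 1.09 to 6.88 CPM in WT, 2.69 to 6.19 in HYP and 4.57 to 7.86 in PCC. It was not called in PCC vs. WT (1.29 ± 0.46, adjusted *p* = 0.0515), but was in 8 of 9 other alternatives, DESeq2 among them, and without WT replicate 5 (adjusted *p* of 0.000774 to 0.119 over the samples left out), which at 6.88 CPM lay far above the other WT samples.

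*Mybl1*, which encodes the related factor A-MYB, was lower in the MENX samples but also uneven in WT. Its values were 107, 130.2, 33.9, 44.7 and 6.74 CPM in WT, 9.59, 16.5, 17.9, 12.6 and 9.40 CPM in HYP and 11.8, 16.1, 11.2, 19.4 and 9.30 CPM in PCC. WT replicate 5, which had the fewest chromaffin transcripts, lay below all HYP and PCC samples, and the other 4 WT samples lay above them. *Mybl1* was 4.92-fold lower in PCC vs. WT (log2 fold change -2.30 ± 0.62 (SE), adjusted *p* = 0.0143) and 4.84-fold lower in HYP vs. WT (adjusted *p* = 0.0191), and both calls were lost under scaling to the listed total.

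The other CDKs act in transcription, splicing or neuronal cells more than in the cell cycle. *Cdk18* had 27.5, 18.6, 22.2, 14.7 and 41.1 CPM in WT, 19.6, 8.70, 12.4, 13.1 and 10.3 CPM in HYP and 6.66, 5.36, 12.5, 5.46 and 12.7 CPM in PCC. PCC lay below WT, and *Cdk18* was 2.93-fold lower in PCC vs. WT (log2 fold change -1.55 ± 0.35 (SE), adjusted *p* = 0.00578) and 1.96-fold lower in HYP vs. WT, where the call (adjusted *p* = 0.0479) was lost in 7 of the 10 fits without 1 sample (adjusted *p* of 0.0270 to 0.128) and in 5 of 9 other alternatives. *Cdk20*, the kinase of the cilium and cell growth also known as CCRK, had 6.76, 6.73, 9.44, 6.21 and 11.9 CPM in WT, 13.4, 10.5, 8.36, 10.5 and 10.7 CPM in HYP and 14.7, 18.4, 14.3, 24.95 and 14.9 CPM in PCC. It rose 2.09-fold in PCC vs. WT (log2 fold change 1.06 ± 0.25 (SE), adjusted *p* = 0.00653), with no overlap.

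*Cdk8*, the kinase of the Mediator complex, rose 1.72-fold in PCC vs. WT and 1.49-fold in HYP vs. WT (adjusted *p* = 0.00418 and 0.0160), with WT at 25.8 to 38.2 CPM below both other groups. *Cdk17* was 1.46-fold lower in PCC vs. WT (adjusted *p* = 0.0178), a call lost under scaling to the listed total and to the recovered library totals. In HYP vs. WT it was not called (adjusted *p* = 0.0580), but was without WT replicate 5 or HYP replicate 2 (adjusted *p* of 0.0426 to 0.171 over the samples left out) and in 3 of 9 other alternatives. *Cdk9*, the kinase of the elongation factor P-TEFb, was 1.38-fold lower in HYP vs. WT (adjusted *p* = 0.0251), a call lost in 6 of the 10 fits without 1 sample (adjusted *p* of 0.0165 to 0.0744) and in 4 of 8 other alternatives. *Cdk14* had its highest mean in HYP, with 21.0 to 29.9 CPM in WT, 28.6 to 40.7 in HYP and 23.0 to 27.8 in PCC. It was not called in HYP vs. WT (0.46 ± 0.15, adjusted *p* = 0.0558) and was 1.56-fold lower in PCC vs. HYP (adjusted *p* = 0.0274); the latter call was lost in 6 of the 10 fits without 1 sample and in 4 of 9 other alternatives, the former was gained without HYP replicate 1 and in 6 of 9 other alternatives, and the adjusted *p* over the samples left out ran from 0.0271 to 0.0715 and from 0.0341 to 0.148. *Cdk10*, *Cdk12* and *Cdk13* had log2 fold changes of -0.51, -0.54 and -0.36 in PCC vs. WT, none of them called (adjusted *p* = 0.0515, 0.0709 and 0.0742); leaving out 1 sample brought a call in 3, 2 and 1 of the 10 fits, with adjusted *p* of 0.0420 to 0.124, 0.0296 to 0.168 and 0.0332 to 0.207, as did 3 of 8, 2 of 9 and 3 of 8 other alternatives.

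Of the other cyclins, *Ccnl1* and *Ccnl2*, the cyclins L that act with transcriptional CDKs in splicing, were lower in PCC than in WT. *Ccnl2* had 894, 825, 501, 595 and 364 CPM in WT, 406, 279, 305, 292 and 285 CPM in HYP and 241, 279.7, 234, 279 and 309 CPM in PCC, and *Ccnl1* had 288, 230.5, 136, 173 and 126, 162, 135, 143, 90.9 and 82.5 and 117, 80.9, 61.8, 62.2 and 76.5 CPM. For both genes PCC lay below WT, whose replicates 1 and 2 were the highest of all. *Ccnl2* was 2.43-fold lower in PCC vs. WT (log2 fold change -1.28 ± 0.26 (SE), adjusted *p* = 0.00335) and 2.03-fold lower in HYP vs. WT (adjusted *p* = 0.0105), and *Ccnl1* was 2.46-fold lower in PCC vs. WT (log2 fold change -1.30 ± 0.27 (SE), adjusted *p* = 0.00393) and not called in PCC vs. HYP (adjusted *p* = 0.0879). The calls of *Ccnl2* were lost under scaling to the listed total. *Ccng2*, cyclin G2, a FoxO target known from cell cycle arrest, ranged 14.3 to 33.0, 34.3 to 54.1 and 48.1 to 71.1 CPM in WT, HYP and PCC and rose 2.31-fold in PCC vs. WT (adjusted *p* = 0.00193) and 1.72-fold in HYP vs. WT (adjusted *p* = 0.0240; 0.0173 to 0.0619 over the samples left out, with the call lost without WT replicate 3 or HYP replicate 2).

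Genes that act with these regulators were read from lists of the wider cell cycle, again only as far as the tables list them; the shares over all genes are 46.7% higher and 38.5% lower in PCC vs. WT, 39.5% and 32.5% in HYP vs. WT, and 21.8% and 22.6% in PCC vs. HYP. Of 18 mitotic kinases and partners, 14 were tested in PCC vs. WT, of which 12 were higher and 1 lower; HYP vs. WT gave 12 and 1 of 14, and in PCC vs. HYP 8 of 12 were higher. The largest folds in PCC vs. WT belonged to *Nek2*, a centrosome kinase, with a log2 fold change of 4.67, *Pbk*, with 4.00, and *Aurkb*, the Aurora kinase of the centromere, with 3.91 (adjusted *p* = 0.000325, 0.000546 and 9.87e-05). The lower gene was *Plk3*, a stress-responsive Polo-like kinase (-2.21, adjusted *p* = 0.0107), and *Aurka* was not called (-0.67, adjusted *p* = 0.0848). Of 14 proliferation markers, 12 were tested in PCC vs. WT, with 11 higher and 1 lower, led by *Top2a*, topoisomerase II (3.85), *Mcm5*, a subunit of the replicative helicase (2.93), and *Mki67*, the gene of the Ki-67 antigen (2.83). HYP vs. WT gave 8 higher and 1 lower of 10, and in PCC vs. HYP 5 of 9 were higher. *Pcna*, the sliding clamp of the replication fork, was the lower gene in both comparisons with WT (-0.98 and -0.82, adjusted *p* = 0.00295 and 0.0125).

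Of 29 APC/C and SCF ubiquitin ligase genes, 16 were tested in PCC vs. WT, with 8 higher and 7 lower, shares near those of all genes, and HYP vs. WT gave 3 and 4 of 10, and in PCC vs. HYP 1 of 4, *Cdc20*, was higher. The largest folds were those of *Ube2c* (3.46) and *Cdc20* (2.76), the ubiquitin-conjugating enzyme and the activator of the APC/C in mitosis, and of *Ccnf*, cyclin F (2.03), all called higher. The lower genes were *Anapc2* (-2.002), *Skp1*, *Ube2s*, *Anapc7*, *Anapc11*, *Anapc13* and *Anapc16*. Of the genes of the FoxO and Akt axis and other regulators of p27, *Stmn1*, whose protein stathmin is bound by p27, was higher in PCC vs. WT (3.50), *Kpna1* (-1.26) and *Akt1* (-0.62) were lower, and *Foxo1* was not called (-0.73). *Stmn1* was also higher in HYP vs. WT (1.86) and in PCC vs. HYP (1.52), and *Kpna1* was lower in HYP vs. WT (-1.03). Of 19 genes of p53 and the DNA damage checkpoint, 4 were tested in PCC vs. WT, with *Rad17* (0.53) and *Sesn2* (0.60) higher and the stress genes *Gadd45g* (-3.23) and *Gadd45b* (-2.66) lower; both tested in HYP vs. WT were lower, and none was tested in PCC vs. HYP.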

How the data were processed

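Adrenal medulla from 5 WT, 5 HYP and 5 PCC samples was measured by poly-A RNA-seq (NEBNext Ultra libraries). Per the submitters' processing notes, reads were aligned with HISAT2 2.0.5 and counted with featureCounts 1.5.0-p3; the methods name the rat build Rn06, and the strand setting of the counting is not given in the sources used here. Each of the 3 deposited tables compares 2 groups and gives, per gene, the raw read count, the count divided by the authors' size factors (a normalised signal) and the FPKM of each sample. The deposited log2 fold changes and p-values of the authors hold their own comparison and were not reported; the *p*-value columns served only to recover how many genes they had tested (18790 in PCC vs. WT, 18057 in HYP vs. WT, 17454 in PCC vs. HYP). The tables list only genes with an adjusted *p* under 0.05 there.

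Counts of each pair of groups were filtered (filterByExpr), TMM scaled and tested with the quasi-likelihood test of edgeR 4.0.16 in R 4.3.3, without covariates, and *p*-values were adjusted by Benjamini-Hochberg over all genes in the authors' test. Where a gene had values in all samples, CPM was scaled over the 15 samples, otherwise over the pair. Ratios of FPKM were compared on the log2 scale by two-sided exact permutation tests (scipy 1.17.1). Alternatives were DESeq2 1.42.0, other scalings and filters, 1 fit over all samples, adjustment over the listed genes alone, a 2-fold minimum, a replicate block and each sample left out in turn. The fits were checked on simulated counts. Samples were grouped by their labels. Values per sample were given for *Cdkn1b*, *Cdk2* and, per role, up to 2 genes averaging at least 1 CPM with the largest PCC vs. WT fold change in either direction, and of each wider list up to 3 genes with the largest fold change were named. Outside this rule, the sample values of *Cdk4* and *Cdkn1a*, which enter the ratios, and the names of *Plk3*, *Aurka*, *Pcna*, *Akt1*, *Foxo1*, *Rad17* and the lower Anapc, *Skp1* and *Ube2s* genes, which make up small counts, were added after their values were seen. Part of the list of FoxO, Akt and p27 regulators is not reported here. The members, lists and tests were chosen with earlier results of these data known. Library totals recovered from the files were 16315018 to 23831269 reads, and the methods give 5 animals for each group of 5.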

Additional observations from a re-analysis of the deposited data

Results flagged for a closer look

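Of 125 sets of 5 samples, 1 for each gene and group, 12 held a sample far from the other 4 in CPM. The rule flags about 1 in 20 sets of independent normal values. CPM values of related genes need not be normal or independent, so the 12 cannot be set against that rate. In WT replicate 5, the sample with the lowest chromaffin sum, *Cdc25a* stood at 17.1 CPM (next 9.28), *Skp2* at 4.77 CPM (next 2.05) and *Mybl2* at 6.88 CPM (next 2.03). In PCC replicate 4, the sample with the lowest cortex sum, *Cdc25b* stood at 65.1 CPM (next 39.2), *E2f1* at 53.8 CPM (next 16.5) and *Cdk6* at 24.1 CPM (next 9.16). In HYP replicate 1, *Cdkn1a* stood at 32.4 CPM (next 18.4), *Mybl2* at 6.19 CPM (next 3.21) and *Ccnl2* at 406 CPM (next 305). *Tfdp1* was highest in HYP replicate 5, at 61.0 CPM (next 51.9). The lowest samples of their groups were WT replicate 3 for *Ccne2*, at 5.30 CPM (next 7.97), and PCC replicate 5 for *Cdk17*, at 17.7 CPM (next 18.9). The causes were not tested.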

How the results depend on the processing

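Of the single-gene values of the other genes, 1371 kept their direction and side of the threshold over the alternatives run, 105 gained and 118 lost a call, and 3 turned direction, all when samples were scaled to the summed counts of the listed genes: *Cdk13* (0.15) and *Rbl2* (0.052) in PCC vs. WT and *Cdk17* (0.012) in HYP vs. WT. Under that scaling *Cdk2* was -0.41 in PCC vs. WT and -0.50 in PCC vs. HYP, neither called, and 0.070 in HYP vs. WT. The *Cdk2* call in PCC vs. HYP was also lost with recovered library totals (-0.42), the authors' size factors (-0.54), at least 10 counts in every sample (-0.65) and 1 fit over all samples (-0.50), and over the samples left out it was -0.73 to -0.57. Adjusted over the listed genes alone, *Cdk2* in HYP vs. WT (-0.38, adjusted *p* = 0.0342) and *Cdkn1b* in PCC vs. HYP (0.42, adjusted *p* = 0.0392) were called. The FPKM ratio of *Cdkn1b* to *Cdkn1c* was 2.505 to 3.64 in PCC vs. WT and 0.76 to 1.74 in PCC vs. HYP over the samples left out; that of *Ccnd2* to *Ccnd3* was at most 0.55 and turned negative without WT replicate 1, WT replicate 2, PCC replicate 1 or PCC replicate 3 (-0.043, -0.039, -0.048 and -0.041), where the cause was not tested.

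Genes of the family called lower in PCC vs. WT, 7 as reported, numbered 14 with DESeq2, 3 scaled to the listed total, 11 with the authors' size factors and 14 adjusted over the listed genes. In HYP vs. WT the 6 became 0 scaled to the listed total, 3 with recovered totals, with at least 10 counts, with 1 fit and at 2-fold or more, and 10 adjusted over the listed genes; over the samples left out, 3 to 6. In PCC vs. HYP the 6 called higher became 15 adjusted over the listed genes, and 0 to 8 over the samples left out. The 2 called lower became 4 with DESeq2 or adjusted over the listed genes, 1 with at least 10 counts or 1 fit, 0 under the other scalings or at 2-fold or more, and 0 to 3 over the samples left out. With edgeR, 4 genes were lower at an unadjusted *p* under 0.05 under each of those scalings.

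The replicate numbers did not pair the samples: 6 of 15 correlations between same-numbered samples were over 0.1, with a range of -0.24 to 0.25. With a replicate block, 26 genes were higher and 8 lower in PCC vs. WT, 14 and 3 in HYP vs. WT, and 0 and 0 in PCC vs. HYP (13 and 4 at an unadjusted *p* under 0.05), and *Cdk2* in PCC vs. HYP was -0.64 (adjusted *p* = 0.145). Depth limits *E2f7* and *E2f8* in WT, at 6 reads or fewer per sample.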
